A study of Oryza sativa Japonica Group with 9 samples.

Results

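RAB21, RAB16B and Osr40c1 are 3 rice genes known to respond to abscisic acid (ABA), the plant hormone of drought and seed maturation. They were picked by name from earlier results of the same arrays: all 3 for the difference between zygotes and egg cells, and RAB21 also for the difference between fertilized eggs and egg cells. Every probe set (the group of short probes that reads a transcript) that the annotation of the array pairs with exactly 1 of these genes was taken. This gave 4 of the 57194 rice probe sets, 2 for RAB21 and 1 each for RAB16B and Osr40c1, and 3 of the 17905 genes that have such a probe set. All 4 were bright enough to be kept for the fits.

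The samples were wild type japonica rice of the cultivar Katy, grown in a greenhouse and measured on an Affymetrix rice array. Each of the 3 stages had 3 replicates of about 100 pooled cells: unfertilized egg cells, fertilized egg cells at 1 to 1.5 hours after pollination, and zygotes at 2.5 to 3 hours after pollination. The cells were isolated without enzymes, and 2.5 ng of RNA per sample went through a 2-cycle amplification before labelling. A free-text label names seedlings, pollen or sperm cells in place of these cells. The stages used here follow the titles and the other labels, which name egg cells, fertilized eggs and zygotes. The titles call the replicates biological and a protocol note calls them technical as well, so the spread between samples, which the p-values rest on, may be partly technical. The study compares cells just before and after the gametes join.

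RAB21, also known as RAB16A, and RAB16B encode dehydrins. These are small, very hydrophilic proteins of the late embryogenesis abundant (LEA) class, which build up in maturing seeds and in drying or salt-stressed tissue and are thought to shield membranes and proteins when water is short. Their genes are textbook targets of ABA. The hormone binds PYL receptors, the receptors hold back type 2C protein phosphatases (PP2C), SnRK2 kinases (SAPK in rice) are set free, and the kinases activate bZIP factors that bind ABA-responsive promoters. Osr40c1 encodes a lectin-like protein described in rice roots as responsive to ABA and salt. In the RefSeq gene table of assembly ASM3414082v1, RAB16D, RAB16C, RAB16B and RAB21 follow each other on chromosome 11 with no other protein-coding gene between them, and Osr40c1 lies on chromosome 3. The RAB16 genes are close relatives, and whether probes of one take up RNA of another was not tested.

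The egg arrays stood apart in their controls. The log2 ratio of spiked poly-A transcripts to spiked hybridization controls ran from -2.16 to 0.13 on the later 6 arrays, against -4.26 to -3.53 on the egg arrays. The hybridization controls alone read 4013 to 5970 for egg cells, 5835 to 33030 for fertilized eggs and 14212 to 157631 for zygotes. The median of rice probe sets was 36.5 to 50.9, 47.3 to 95.4 and 54.0 to 218.3 in the same order. Zygote replicate 2 had the highest value of both. The 18S rRNA probe sets gave 1886 to 8275 on later arrays, compared with 14666 to 24657 for the egg cells. Zygote replicate 2 was least like the others, with a median correlation of 0.694 to the rest, against 0.866 to 0.929 for the other 8 arrays. The log2 ratio of 3′ to 5′ control probe sets, a sign of RNA quality, was 8.62 in fertilized egg replicate 3, which held the highest Osr40c1 value of its stage, and 8.15 in zygote replicate 2, which held the lowest RAB21 and RAB16B values. It was 5.93 to 6.99 on the other arrays. Markers of ovule and nucellus were bright on every array: 7 of 7 genes summed to 37431 to 53080 for egg cells, 36330 to 53086 for fertilized eggs and 39958 to 72493 for zygotes. Most of that came from SWEET11, LTPL1 and MADS58. The summed leaf markers (4 of 5 genes) were 12071 to 20950 for egg cells, 14293 to 18815 for fertilized eggs and 2191 to 13368 for zygotes. Most of the leaf sum was CAB2R, while PETE read 888.8 to 4800, RBCS 77.5 to 375.1 and PORA at most 95.3. The pollen and anther markers (6 of 6) gave 4162 to 4642 for egg cells, 6803 to 8912 for fertilized eggs and 3701 to 5142 for zygotes. Endosperm markers (5 of 5) summed to 7742 to 15563 for egg cells, 12268 to 37158 for fertilized eggs and 8351 to 21160 for zygotes, nearly all of it from GBSSI. In the rest of that list GLUA2 read 224.3 to 1351, RAG1 at most 517.4, AMY1A at most 101.7 and the storage protein gene GLUA1 at most 81.1. The embryo genes OSH1, WOX8 and WOX9 summed to 532.4 to 4505 for egg cells, 404.6 to 446.9 for fertilized eggs and 734.1 to 1331 for zygotes. The 4505 rested on OSH1 in egg cell replicate 2, at 4201, against 230.6 and 318.2 in the other egg cell samples. No sperm cell marker could be matched. The part of these measures in the results on RAB21, RAB16B and Osr40c1 was not tested, apart from the fits with the spike ratio as a covariate.

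RAB21 was bright in egg cells and dim in zygotes. Its brighter probe set had a signal (a linear intensity scaled to the same trimmed mean on every array) of 9693, 6948 and 5619 in the 3 egg cell samples. The same probe set read 720.1, 807.3 and 768.3 in the fertilized egg and 120.3, 29.2 and 343.1 in zygotes. The stages did not overlap: each fertilized egg array lay below all egg arrays, and each zygote array lay below all fertilized egg arrays. This stepwise order held for 75 of the 28597 probe sets kept, or 0.262 percent, RAB21 and RAB16B among them. Both were picked for being low in zygotes, so nothing is read from that. In pooled cells, fewer cells with a transcript and less of it per cell cannot be told apart.

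The RAB21 replicates were tight in fertilized eggs and loose in zygotes, with 765.2 ± 43.7 in the fertilized egg and 164.2 ± 161 in zygotes (SD, n = 3 each). Set against all rice probe sets of the same array, 1.40 to 3.23 percent were brighter than RAB21 in egg cells, 17.0 to 18.4 percent in the fertilized egg, and 35.3, 81.5 and 25.7 percent in zygote replicates 1, 2 and 3. In zygote replicate 2 RAB21 thus lay below that array's median of 218.3.

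**Figure D1:**
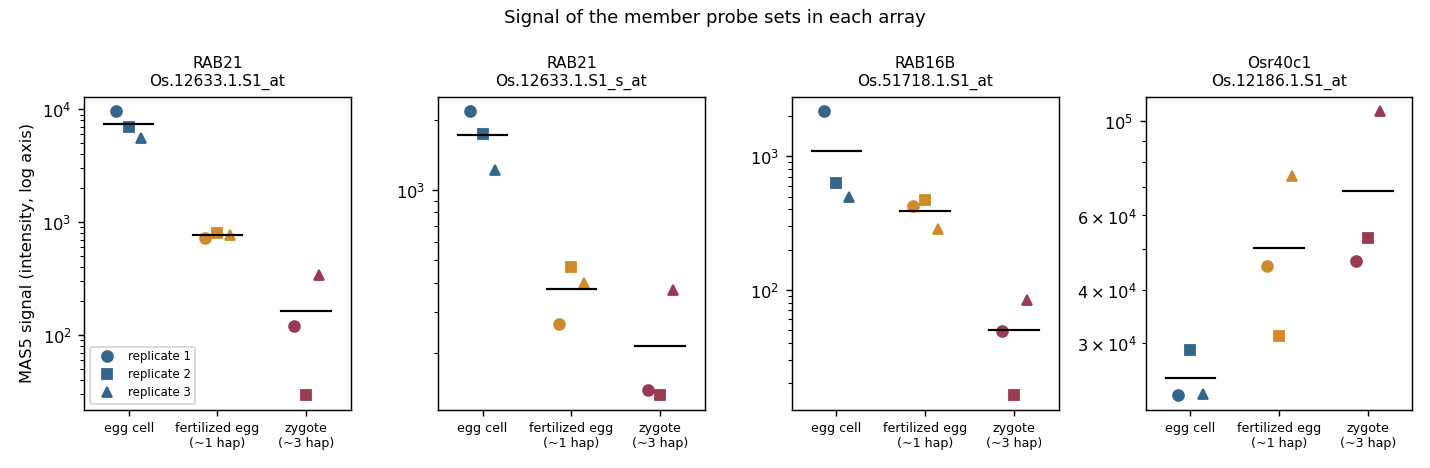
MAS5 signal (intensity, log axis) of the 4 probe sets on each of the 9 arrays by stage; points are the 3 replicates, bars the stage means (n = 3), and each panel has its own axis range. The brighter RAB21 probe set stands at 5619 to 9693 in egg cells, 720.1 to 807.3 in the fertilized egg and 29.2 to 343.1 in zygotes, while Osr40c1 runs the other way.

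The second RAB21 probe set, whose _s_at suffix marks probes that can match more than 1 transcript, was dimmer in egg cells and had a narrower range. It read 2182, 1744 and 1221 in egg cells, 267.2, 464.7 and 399.1 in the fertilized egg, and 139.3, 131.3 and 371.2 in zygotes. All later arrays lay below the egg arrays, as in 3.66 percent of the probe sets kept. Zygotes and fertilized eggs overlapped, since zygote replicate 3 was above fertilized egg replicate 1. Both RAB21 probe sets put egg cells highest, and they differed in how far apart the later stages lay.

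On the log2(signal + 15) scale, which understates changes of dim genes, zygotes minus egg cells was -5.81 ± 0.59 for the brighter RAB21 probe set, and fertilized eggs minus egg cells was -3.22 ± 0.59 (SE of the limma fit, n = 3 per stage). For the second probe set these differences were -3.03 ± 0.47 and -2.14 ± 0.47 (SE). RAB21 was found in these contrasts, so they are sizes without a test. In the first of them 20 of 28597 probe sets, or 0.0699 percent, had an adjusted p under 0.05, all lower in zygotes, and in 8.74 percent every zygote array lay below every egg array. The size for the brighter probe set was -5.04 without zygote replicate 2, -6.55 without zygote replicate 3 and -4.88 with array quality weights, by which noisier arrays count less. A covariate for the spike ratio left zygotes minus egg cells at -5.75 ± 1.09 and fertilized eggs minus egg cells at -3.15 ± 1.10 (SE).

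Zygotes against fertilized eggs was not itself used to pick these genes. For RAB21, though, it equals the difference between the 2 contrasts that were used, so its values are sizes without a test. For RAB16B and Osr40c1 it shares its zygote arrays with the contrast used to pick them. The brighter RAB21 probe set differed by -2.60 ± 0.59 (SE). No probe set passed the threshold of 0.05 by limma here (0 percent called), while 10.5 percent had an unadjusted p under 0.05. Zygotes lay below fertilized eggs on 3 of 3 arrays, an arrangement found for 6.12 percent of probe sets. The difference was -1.68 with array weights, -1.82 without zygote replicate 2 and -3.33 without zygote replicate 3. For the second probe set it was -0.89 ± 0.47 (SE).

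RAB16B, the neighbour of RAB21 in the cluster, was low in all zygote samples and had 1 very high egg cell sample. Its only probe set read 2193, 628.3 and 493.6 in egg cells, 421.3, 471.5 and 284.2 in the fertilized egg, and 49.4, 16.1 and 83.6 in zygotes. The lowest egg array, at 493.6, was just above the highest fertilized egg array, at 471.5, while every zygote array was far below the lowest fertilized egg array. Among the rice probe sets of the same array, 9.03 to 22.1 percent were brighter than RAB16B in egg cells, 22.4 to 27.4 percent in the fertilized egg and 52.1 to 93.7 percent in zygotes. All 3 zygote values were therefore below their own array's median.

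Zygotes minus egg cells was -3.94 ± 0.63 for RAB16B (log2, SE), a size without a test because RAB16B was chosen on it. It was -3.30 without egg cell replicate 1 and -2.76 with an offset of 100 in place of 15. Fertilized eggs minus egg cells, which shares its egg arrays with that contrast, was -1.17 ± 0.63 (interval -2.53 to 0.19; adjusted p = 0.651 by limma) and fell short of the threshold. Without egg cell replicate 1 it was -0.52. In this contrast 13 of 28597 probe sets were called, or 0.0455 percent, 0.00699 percent higher and 0.0385 percent lower in fertilized eggs. The groups lay apart, fertilized eggs lower, in 11.1 percent of probe sets. Zygotes minus fertilized eggs was -2.78 ± 0.63 (interval -4.14 to -1.41; adjusted p = 0.237 by limma), which also missed, and it was -1.72 with an offset of 100.

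Osr40c1 was among the brightest transcripts on every array and was brighter in both later stages. Its probe set read 22590, 28965 and 22806 in egg cells, 45539, 31186 and 74300 in the fertilized egg, and 46963, 53019 and 105824 in zygotes. Each later array lay above all egg arrays, as in 4.66 percent of the probe sets kept, and the later stages overlapped with each other. The highest value of each later stage came from its replicate 3. By place within the array, 0.121 to 0.192 percent of rice probe sets were brighter than Osr40c1 in egg cells, 0.0839 to 0.110 percent in the fertilized egg and 0.035 to 0.103 percent in zygotes.

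For Osr40c1 zygotes minus egg cells was 1.38 ± 0.36 (log2, SE), without a test since it was chosen on this contrast. Zygotes lay wholly above egg cells in 14 percent of probe sets and fertilized eggs above egg cells in 13.8 percent. Fertilized eggs minus egg cells, which shares its egg arrays with the contrast used to pick Osr40c1, was 0.94 ± 0.36 (interval 0.17 to 1.71, adjusted p = 0.488 by limma). It was 0.61 without fertilized egg replicate 3. Zygotes minus fertilized eggs was 0.44 ± 0.36 (interval -0.33 to 1.21; adjusted p = 0.665 by limma), and zygotes lay wholly above fertilized eggs in 6.64 percent of probe sets, Osr40c1 not among them. Neither passed. This last difference was 1.12 with array weights, 0.77 without fertilized egg replicate 3, 0.08 without zygote replicate 3 and 0.14 without fertilized egg replicate 2.

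The size for Osr40c1 depended on scaling more than that for RAB21. After quantile normalization, which gives all arrays the same distribution, zygotes minus egg cells was 0.40 and fertilized eggs minus egg cells 0.26. That scaling moved the median of all probe sets by -0.21 for zygotes minus egg cells. Relative to that median, Osr40c1 differed by 1.29 with the deposited scaling and by 0.52 after quantile normalization, and the brighter RAB21 probe set by -5.91 and by -5.87. With the spike ratio as a covariate, Osr40c1 differed by 2.43 for zygotes minus egg cells and by 2.01 for fertilized eggs minus egg cells.

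**Figure D2:**
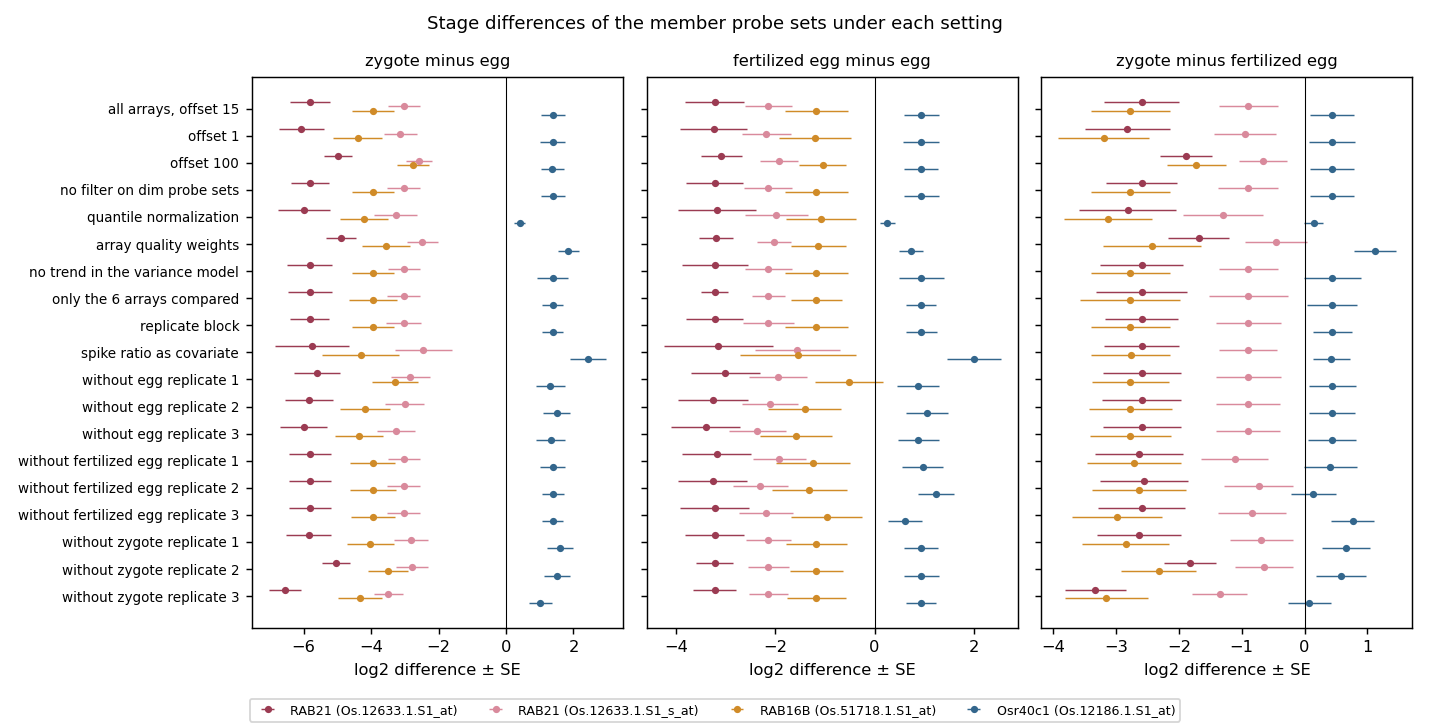
Log2 difference (x axis, ± SE) of the 4 probe sets in the 3 contrasts, as fitted to all arrays and under 18 other settings (rows). The sign is the same in all rows for each probe set and contrast; for zygotes minus egg cells the brighter RAB21 probe set runs from -6.55 to -4.88, and Osr40c1 from 0.40 to 2.43.

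The other dehydrin and LEA genes were a mixed group, and of the 6 tested, 0 passed by limma in any contrast, in either direction. At an unadjusted p under 0.05 there was 1 of 6 for zygotes minus egg cells, beside 16.3 percent of all probe sets. Their median log2 difference was -0.38 for zygotes minus egg cells, against 0.09 for all probe sets, and 5 of 6 estimates were below 0, while 54 percent of all were above 0. With array weights 3 of 6 were below 0 for zygotes minus egg cells, and EM and RAB25 turned to 0.19 and 0.63. The median was -0.48 for fertilized eggs minus egg cells, against 0.06 for all, and -0.08 for zygotes minus fertilized eggs, against 0.07; with array weights the last was 0.09.

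The cluster neighbours RAB16C and RAB16D, dehydrin genes as well, had overlapping stages for zygotes against either other stage. RAB16C read 611.9, 235.6 and 126.6 in egg cells, 220.4, 113.1 and 285.7 in the fertilized egg, and 110.7, 761.6 and 39.9 in zygotes. RAB16D read 285.7, 431.7 and 363.7 in egg cells, 173.7, 124.2 and 271.5 in the fertilized egg, and 246.5, 636.6 and 154.1 in zygotes. Its fertilized eggs lay wholly below egg cells, as in 11.1 percent of the probe sets kept, while those of RAB16C overlapped egg cells. For RAB16D fertilized eggs minus egg cells was -0.92 ± 0.56 (SE, adjusted p = 0.693 by limma). With array weights it was -1.07 ± 0.35 (SE, adjusted p = 0.0879 by limma). In both genes zygote replicate 2, the lowest array for RAB21 and RAB16B, was the highest of all 9. Zygotes minus egg cells was -0.68 ± 0.87 for RAB16C and -0.27 ± 0.56 for RAB16D (SE; adjusted p = 0.690 and 0.811 by limma). Zygote replicate 2 counts least under array weights, which gave -1.80 ± 0.80 and -0.76 ± 0.45 (SE; adjusted p = 0.154 and 0.280 by limma).

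DHN1, a dehydrin gene, was bright in every stage, at 15623 ± 2828 in egg cells, 10909 ± 5116 in the fertilized egg and 17711 ± 8266 in zygotes (SD, n = 3). Its zygote minus egg cell difference was 0.10 ± 0.37 (SE), and 0.60 with array weights. LEA19, a LEA gene, had the lowest estimate of the group. It read 249.7, 507.4 and 807.5 in egg cells, 874.1, 814.2 and 408.8 in the fertilized egg, and 127.2, 41.1 and 396.4 in zygotes. Zygotes lay below fertilized eggs, as in 6.12 percent of the probe sets kept, and overlapped egg cells. The differences were -2.19 ± 0.69 and -1.71 ± 0.69 (SE, adjusted p = 0.352 and 0.275 by limma). The difference from egg cells was -0.79 with array weights. EM, a LEA gene of the seed, differed by -0.44 ± 0.61 between zygotes and egg cells, and RAB25 by -0.33 ± 0.82 (SE). Osr40g3, of the Osr40 family, has no probe set paired with it alone in the annotation used.

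**Figure D3:**
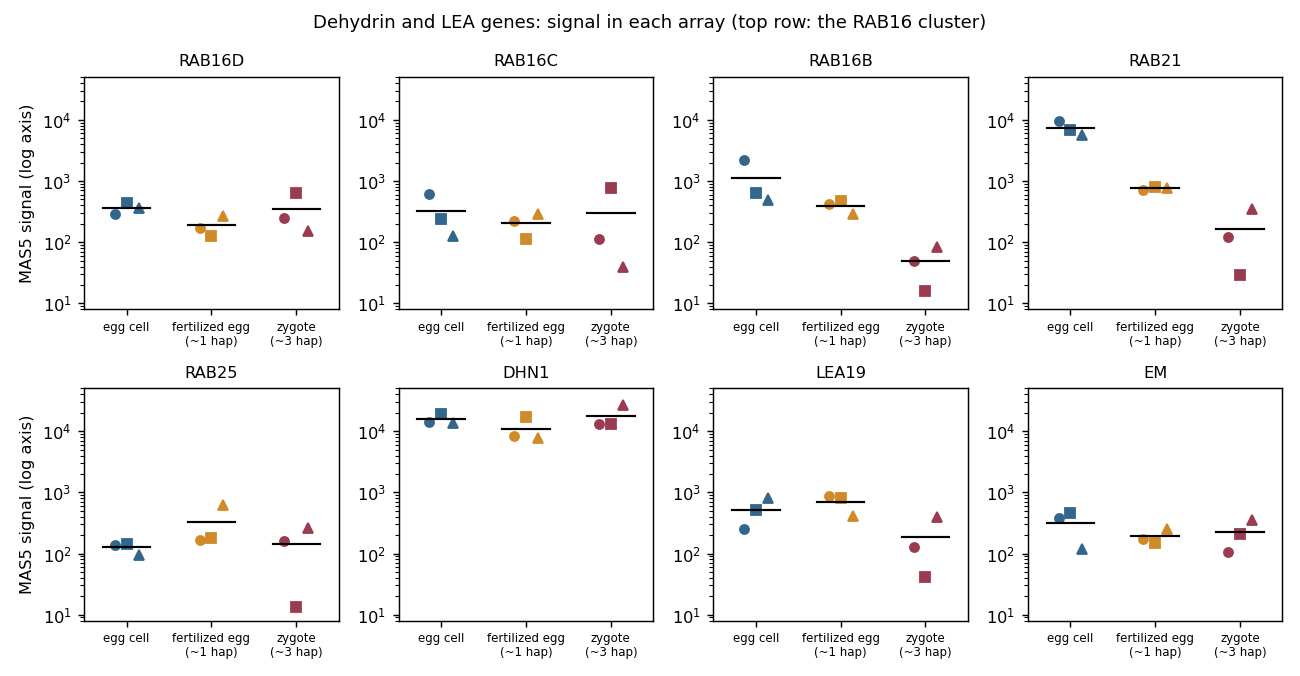
MAS5 signal (log axis, same range in all panels) of dehydrin and LEA genes on each array by stage; points are the 3 replicates and bars the means (n = 3). RAB16B and RAB21 step down through the stages, while RAB16C and RAB16D are highest in zygote replicate 2, at 761.6 and 636.6.

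Over all ABA and dehydration lists, 44 genes other than RAB21, RAB16B and Osr40c1 were tested, each by its brightest probe set. By limma 0 were called in any contrast. With array weights 2 were called lower for zygotes minus egg cells, and 1 higher and 1 lower for fertilized eggs minus egg cells. At an unadjusted p under 0.05 there were 7 for zygotes minus egg cells, 5 for fertilized eggs minus egg cells and 8 for zygotes minus fertilized eggs, beside 16.3, 8.68 and 10.5 percent of all probe sets. For zygotes minus egg cells 26 of 44 estimates were below 0 and the median was -0.10; with array weights 17 of 44 were below 0 and the median was 0.16. For fertilized eggs minus egg cells 17 of 44 were above 0 with a median of -0.18, beside 53.7 percent of all probe sets, and with array weights 25 of 44 with a median of 0.15. For zygotes minus fertilized eggs 24 of 44 were above 0, and 23 of 44 with weights, beside 53.8 percent of all. The zygote minus egg cell estimates ran from -1.71 to 2.18.

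PYL11, the ABA receptor gene that could be matched, read 441.5, 456.2 and 397.5 in egg cells, 224.4, 114.9 and 183.8 in the fertilized egg, and 134.3, 408.9 and 394.9 in zygotes. Fertilized eggs lay below egg cells without overlap, as in 11.1 percent of the probe sets kept, and zygotes overlapped with fertilized eggs. Fertilized eggs minus egg cells was -1.28 ± 0.52 (SE; adjusted p = 0.514 by limma); with array weights it passed, at -1.42 ± 0.34 (SE; adjusted p = 0.0310 by limma).

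Of the PP2C phosphatases, which hold ABA signalling off, 6 of 7 estimates were below 0 for zygotes minus egg cells and 6 of 7 for zygotes minus fertilized eggs, with medians of -0.54 and -0.86. Among all probe sets 54 and 53.8 percent of estimates were above 0 in these contrasts. With array weights the counts were 5 of 7 and 6 of 7, and the medians -0.12 and -0.67. None was called by limma without weights (with them PP2C09 was, lower in zygotes than in egg cells), and for zygotes minus fertilized eggs 4 of 7 had an unadjusted p under 0.05, or 3 of 7 with weights, beside 10.5 percent of all probe sets without weights. PP2C68 read 1637, 5049 and 944.5 in egg cells, 2342, 2092 and 1362 in the fertilized egg, and 531.1, 754.6 and 603.5 in zygotes. Its zygote arrays lay below all others, as did those of PP2C09 and ABIL1. Over all probe sets kept, zygotes lay wholly below egg cells in 8.74 percent and wholly below fertilized eggs in 6.12 percent. For PP2C68 zygotes minus egg cells was -1.65 ± 0.51 (SE, adjusted p = 0.229 by limma). With array weights it was -1.27 ± 0.52 (SE, adjusted p = 0.130 by limma). PP2C30, the brightest of the PP2C list, differed by -0.54 ± 0.42 between zygotes and egg cells (SE), and by -0.12 with weights.

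Among the 10 SnRK2 kinase genes 5 estimates were above 0 and 5 below for zygotes minus egg cells, with a median of -0.16, beside 54 percent above 0 over all probe sets. With array weights 7 of 10 were above 0 and the median was 0.23. SAPK4 had 2090 ± 18.8 in egg cells, 1266 ± 137 in the fertilized egg and 1243 ± 181 in zygotes (SD, n = 3). All 6 later arrays lay below its egg arrays, as in 3.66 percent of the probe sets kept. Zygotes minus egg cells was -0.75 ± 0.30 and fertilized eggs minus egg cells -0.72 ± 0.30 (SE; adjusted p = 0.270 and 0.519 by limma). SAPK8, the brightest kinase gene of the list, differed by -0.73 ± 0.48 between zygotes and egg cells (SE), and by -0.46 with weights.

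TRAB1, a bZIP factor that binds ABA-responsive elements, had 5006 ± 466 in egg cells, 4306 ± 432 in the fertilized egg and 4207 ± 2971 in zygotes (SD, n = 3), and zygotes minus egg cells was -0.61 ± 0.51 (SE), turning to 0.12 with array weights. ABA8OX1, which encodes an enzyme of ABA breakdown, differed by 0.32 ± 0.43 (SE), and by 0.56 with weights. In the list of other drought genes 8 of 15 estimates were above 0 for zygotes minus egg cells, and 10 of 15 with weights. GAPC3, a glyceraldehyde-3-phosphate dehydrogenase gene and the brightest of them, differed by 0.65 ± 0.30 (SE) by its brightest probe set. Its dimmer probe sets went opposite ways, at 2.31 ± 0.85 and -1.77 ± 0.88 (SE). With array weights both of these were called, at 2.57 and -2.50 (adjusted p = 0.0459 and 0.0441 by limma). By the brightest probe set of each gene, DREB1C, a gene for a stress-response transcription factor, had the largest estimate. It was 2.18 ± 1.21 (SE, adjusted p = 0.368 by limma) and 1.33 with weights. This rested on zygote replicate 2 at 957.4, while the other 8 arrays read from 7.23 in egg cell replicate 1 to 53.0 in zygote replicate 3.

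**Figure D4:**
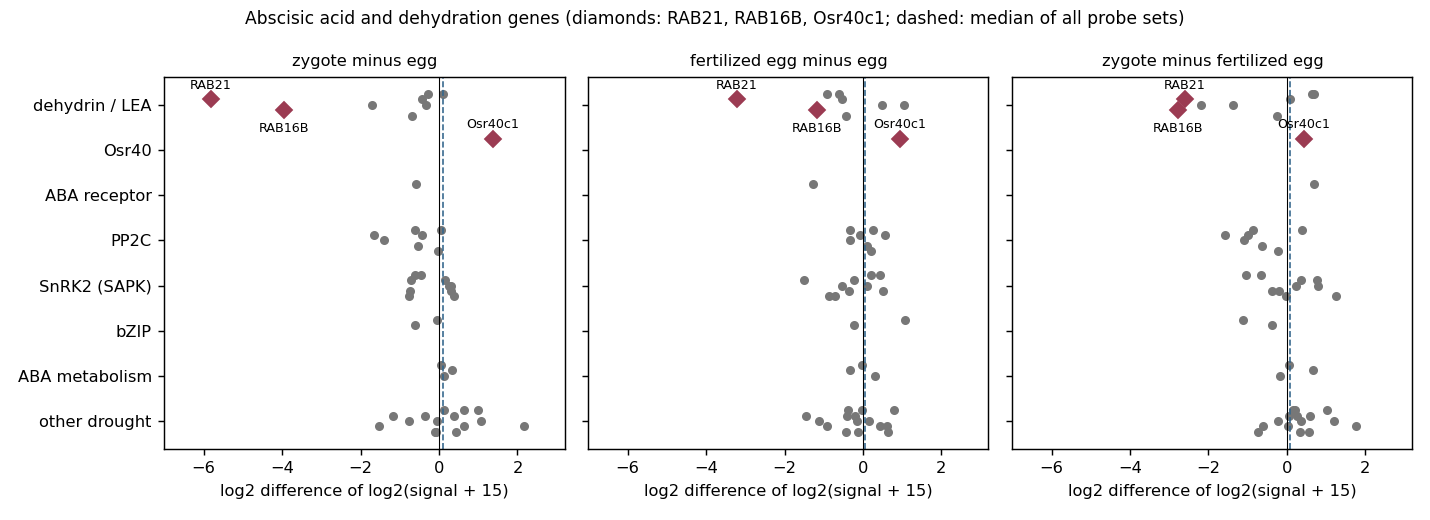
Log2 difference (x axis) of the brightest probe set of each tested gene in the ABA and dehydration lists (rows), in 3 contrasts; diamonds are RAB21, RAB16B and Osr40c1, circles the other 44 genes, and the dashed line is the median of all 28597 probe sets. For zygotes minus egg cells the circles lie between -1.71 and 2.18, and RAB21 and RAB16B lie to their left at -5.81 and -3.94.

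The named genes most like each of the 3 were taken from 2572 other probe sets by Pearson correlation of log2 values over the 9 arrays, which share stage, scaling and labelling; these are descriptions without a test. For RAB21 they were SAT2 at 0.969, ARF1 at 0.961, API5 at 0.925, OsPP2C47 at 0.923 and GLN1-2 at 0.919. All had their highest stage mean in egg cells, over a smaller range than RAB21. SAT2 had 2955 ± 90.2 in egg cells, 2036 ± 137 in the fertilized egg and 1181 ± 188 in zygotes (SD, n = 3).

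For RAB16B the most alike were OsC3H59 at 0.946, DCW11 at 0.942, SAT2 at 0.930, PDIL2-3 at 0.925 and PMM at 0.925. PDIL2-3 had 3634 ± 653 in egg cells, 2410 ± 665 in the fertilized egg and 866 ± 223 in zygotes (SD, n = 3). For Osr40c1 they were ARF at 0.982, TID1 at 0.976, P1/P2-like at 0.976, RPL39B at 0.973 and GOS2 at 0.965, all of them very bright as well. GOS2 had 30808 ± 6581 in egg cells, 75227 ± 38484 in the fertilized egg and 102804 ± 35462 in zygotes (SD, n = 3), with the highest value of each later stage in replicate 3, as for Osr40c1.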

How the data were processed

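The deposited table holds a linear intensity per probe set and array, made by the authors with MAS5, per the submitters' processing notes; no MAS5 version is given there. The trimmed mean (2 percent off either end) was 500.1 on every array, so the deposited values were already scaled. Of 57381 probe sets, 123 controls and 64 reporters were dropped. The offset of 15 is the rounded 25th percentile of all values, and the 28597 probe sets whose mean reached the median were kept. The limma package (3.58.1, in R 4.3.3; lmFit, eBayes with trend) fitted all 9 arrays with no further normalization, with Benjamini-Hochberg adjustment over the probe sets kept and a threshold of 0.05. The fitting script was tested on simulated data. These gave all arrays the same spread for a given probe set, so that test cannot speak to the differing quality of the real arrays. Precision is limited by having 3 arrays a stage.

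Members and lists were chosen with earlier results of these data known. List genes were matched by symbol or synonym (57 matched, 48 with a probe set, 2 wrong matches dropped), with the brightest probe set for each gene. The genes named are the members, the other dehydrin, LEA and Osr40 genes, any list gene past the threshold, the brightest of each other list and the one with the largest zygote minus egg cell estimate, and the 5 most correlated named genes per member. ABIL1, the genes named for calls under alternatives, and those whose levels are given among the correlated ones, were picked after their values were seen. Alternatives were offsets of 1 and 100, no filter, quantile normalization, array weights, no variance trend, only the 6 arrays compared, a replicate block, the spike ratio as a covariate and leaving out each array in turn. No sequence is used here.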

Additional observations from a re-analysis of the deposited data

How the results depend on the processing

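The differences of RAB21, RAB16B and Osr40c1 kept their sign in all 3 contrasts under all 18 alternatives. For zygotes minus egg cells, sizes moved most for the brighter RAB21 probe set with array weights (-4.88), the second with the spike ratio (-2.45), RAB16B with an offset of 100 (-2.76), and Osr40c1 after quantile normalization (0.40) and with the spike ratio (2.43). For fertilized eggs minus egg cells the second RAB21 probe set moved with the spike ratio (-1.55). The cause was not tested. Counts of called probe sets were far less stable. For zygotes minus egg cells 20 became 11 after quantile normalization, 1938 with array weights, 0 by limma without the variance trend (4458 with an unadjusted p under 0.05), 8 with only the 6 arrays, 1070 with the spike ratio and 1 to 720 with an array left out, the highest without zygote replicate 1 and the lowest without egg cell replicate 3. For fertilized eggs minus egg cells 13 became 21 with an offset of 100, 1317 with weights, 0 by limma without the trend (2019 with an unadjusted p under 0.05), 159 with the 6 arrays, 861 with the spike ratio and 1 to 68 with an array left out, the highest without zygote replicate 2. For zygotes minus fertilized eggs 0 became 10 with weights, 257 with the spike ratio and 0 to 7 with an array left out; none of these calls was RAB21, RAB16B or Osr40c1. Of the 44 list genes, PP2C09 and P5CS1 were called lower in zygotes than in egg cells with weights, with the spike ratio and without zygote replicate 1 (2 each time, 0 to 2 over the arrays left out). For fertilized eggs minus egg cells 2 were called with weights (ABF2 higher, PYL11 lower) and 1 with the spike ratio (P5CS1, lower). With the replicate number as a block the counts were 14 for zygotes minus egg cells, 14 for fertilized eggs minus egg cells and 0 for zygotes minus fertilized eggs. Deviations from the stage means had correlations of -0.27 to 0.14 between same-numbered arrays. With 3 arrays a stage these cannot decide whether the numbers pair the samples.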

Other observations

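P5CS1, which encodes an enzyme of proline synthesis, read 14110, 15293 and 17911 in egg cells, 11566, 9047 and 5423 in the fertilized egg, and 14408, 1955 and 5656 in zygotes. Zygote replicate 1 lay within the egg cell range, and without that array P5CS1 was called lower in zygotes than in egg cells (-2.23 ± 0.44, SE; adjusted p = 0.0318 by limma). Over all arrays it missed (-1.53 ± 0.55, SE; adjusted p = 0.260). VP1, a B3 factor of the seed, was too dim to be tested. It read 1.84, 3.31 and 1.92 in egg cells, 57.7, 33.4 and 7.79 in the fertilized egg, and 28.7, 109.0 and 109.2 in zygotes. Its later arrays all lay above the egg arrays, as in 4.66 percent of the probe sets kept, VP1 not among them. Its egg cell values and the 7.79 lay below the offset added before taking logs. The median of rice probe sets was 36.5 to 50.9 for egg cells and 47.3 to 218.3 on the later 6 arrays. Whether the VP1 values follow this rise of the array medians was not tested. Both genes were singled out after their values were seen.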
